A study of Mus musculus with 6 samples.

Results

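Glycosyltransferases attach sugars to proteins and lipids, mostly in the endoplasmic reticulum and Golgi, and several of their families are known to use manganese (Mn) as the metal that holds the nucleotide sugar donor. Here their mRNA levels were examined in the cerebellum of mice fed diets with low or normal Mn. The genes were chosen by name, as the protein-coding genes whose symbols begin with B3galt, B4galt, B3gnt, B3gat, Galnt, Mgat, Ext1, Ext2, Extl, Xylt, Large, Gxylt, Chsy, Chpf, Csgalnact or Pomgnt, together with Ogt. The rule used no measured value and found 73 genes among the 53620 genes of the deposited table that could be given a symbol. Of these, 64 had enough counts to be tested for a diet difference and 9 did not.

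The mice were male C57BL/6 animals without any engineered allele, bought at 4 weeks of age and fed purified diets for 2 weeks. The low-Mn group received a diet labelled 0 ppm Mn and the normal-Mn group a diet labelled 35 ppm, both of which are nominal contents. RNA was taken from 1 cerebellum per mouse, with 3 mice per diet, and sequenced after poly(A) selection. One legend in the study calls the triplicates technical, in which case the p-values below would measure technical spread. The 6 libraries held between 14548336 and 21277469 expected counts, and all 3 normal-Mn libraries were deeper than all 3 low-Mn libraries. The normal-Mn columns carry their diet and replicate in their names, whereas the low-Mn columns carry a number alone. The tissue label was borne out by Gabra6, a granule neuron receptor subunit at 615 to 657 CPM (counts scaled to a common library size by TMM), and by Calb1, a Purkinje neuron calcium-binding protein at 1185 to 1265 CPM.

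In the Golgi, enzymes of these families build N-glycan branches, mucin-type and O-mannose glycans, and the glycosaminoglycan chains of proteoglycans. Many fold so that a short acidic run of residues, aspartate-any residue-aspartate, holds a divalent metal ion, often Mn, beside the donor sugar. In the Galnt family, which starts mucin-type O-glycosylation, the run is known to end in histidine instead. Other members, among them Ogt and Mgat5, are known to work without a bound metal. In the cerebellum such glycans are carried by the proteoglycans of perineuronal nets, by dystroglycan and by the HNK-1 epitope of cell adhesion molecules.

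The coding sequences were searched for these runs because they are the part of the enzymes known to meet the metal. The search took the longest annotated coding sequence of each gene (GENCODE M21, GRCm38) and read codons in frame on the coding strand. The first pattern was GAT or GAC, any codon, then GAT or GAC. It occurred in 64 of the 73 members, or 87.7%, against 64.03% of the 12490 genes with a coding sequence of 308 to 1046 codons, the span of the members. A narrower form with a valine codon in the middle, which is a subset of the first, occurred in 15 members (20.5%) and in 8.25% of those genes. All 7 B4galt members and both Csgalnact members held it once. The stretches below show it in capitals with 18 bases on each side, for the family in which galactose transfer is a classical Mn-dependent reaction and for the pair that holds the member with the smallest p-value. The stretch of B4galt6 is not shown here.
B4galt1: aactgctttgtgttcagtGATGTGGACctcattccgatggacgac
B4galt2: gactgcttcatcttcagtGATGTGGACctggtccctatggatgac
B4galt3: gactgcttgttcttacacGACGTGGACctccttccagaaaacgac
B4galt4: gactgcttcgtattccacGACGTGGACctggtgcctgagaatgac
B4galt5: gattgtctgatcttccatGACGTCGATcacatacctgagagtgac
B4galt7: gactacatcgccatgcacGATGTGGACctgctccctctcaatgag
Csgalnact1: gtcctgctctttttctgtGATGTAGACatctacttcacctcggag
Csgalnact2: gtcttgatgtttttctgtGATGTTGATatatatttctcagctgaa

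Each of these stretches lies within a single coding exon of GRCm38. Those of B4galt1 (chr4:40812753-40812797, minus strand) and B4galt2 (chr4:117877507-117877551, minus strand) hold the run at codons 249 to 251 and 213 to 215, counted from the start codon. Those of B4galt3 (chr1:171274028-171274072, plus strand) and B4galt4 (chr16:38757754-38757798, plus strand) hold it at codons 197 to 199 and 194 to 196. B4galt5 (chr2:167305728-167305772, minus strand) holds it at codons 234 to 236 and B4galt7 (chr13:55607252-55607296, plus strand) at codons 163 to 165. Csgalnact1 (chr8:68373573-68373617, minus strand) holds it at codons 356 to 358 and Csgalnact2 (chr6:118120979-118121023, minus strand) at codons 367 to 369.

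The histidine form, GAT or GAC, any codon, then CAT or CAC, occurred in all 19 Galnt members, against 44.3% of the 12490 genes. With a serine codon in the middle it occurred in 9 of the 19 Galnt members, in 2 of the 54 other members and in 4.996% of the 12490 genes. The aspartate form was not found in 5 of the Galnt genes (Galnt3, Galnt6, Galnt13, Galnt16 and Galntl5) nor in Mgat2, Mgat5, Mgat5b and Pomgnt2. A match is a run of letters and not a shown metal site. The stretches below hold the run for the most abundant Galnt mRNAs and for both Galnt members with the smallest p-values. Galnt2 and Galnt10 hold more runs of the histidine form outside the stretch shown.
Galnt2: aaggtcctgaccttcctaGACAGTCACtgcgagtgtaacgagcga
Galnt9: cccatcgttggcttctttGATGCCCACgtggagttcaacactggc
Galnt13: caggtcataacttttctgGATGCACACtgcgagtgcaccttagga
Galnt7: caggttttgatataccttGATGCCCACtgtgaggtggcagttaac
Galnt10: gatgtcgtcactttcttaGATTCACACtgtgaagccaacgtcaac

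The run lies at codons 223 to 225 of Galnt2 (chr8:124328136-124328180, plus strand), 246 to 248 of Galnt9 (chr5:110589897-110589941, plus strand) and 208 to 210 of Galnt13 (chr2:54855153-54855197, plus strand). It lies at codons 237 to 239 of Galnt10 (chr11:57765682-57765726, plus strand). In Galnt7 (chr8:57545367-57545671, minus strand) it lies at codons 301 to 303, and an intron splits the stretch shown.

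Levels were compared between members as TPM, in which counts are divided by the exon length of each gene and scaled to the same sum in every library. B3gat3, which adds the glucuronic acid that completes the glycosaminoglycan linker, had the highest mean over the 6 libraries, at 169 TPM (165 to 177). Mgat3, which adds the bisecting N-acetylglucosamine (GlcNAc) of N-glycans, had 164 TPM (154 to 168). Ogt, which attaches single GlcNAc residues to nuclear and cytosolic proteins, had 140 TPM (126 to 153), and Extl2, which can add a sugar to the glycosaminoglycan linker, had 133 TPM (122 to 141). These 4 members stood at 100 TPM or more, 49 of the 73 stood at 10 TPM or more and 13 under 1 TPM. The median of the 64 tested members was 22.3 TPM, close to the 20.1 TPM of the 14156 tested protein-coding genes.

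**Figure D1:**
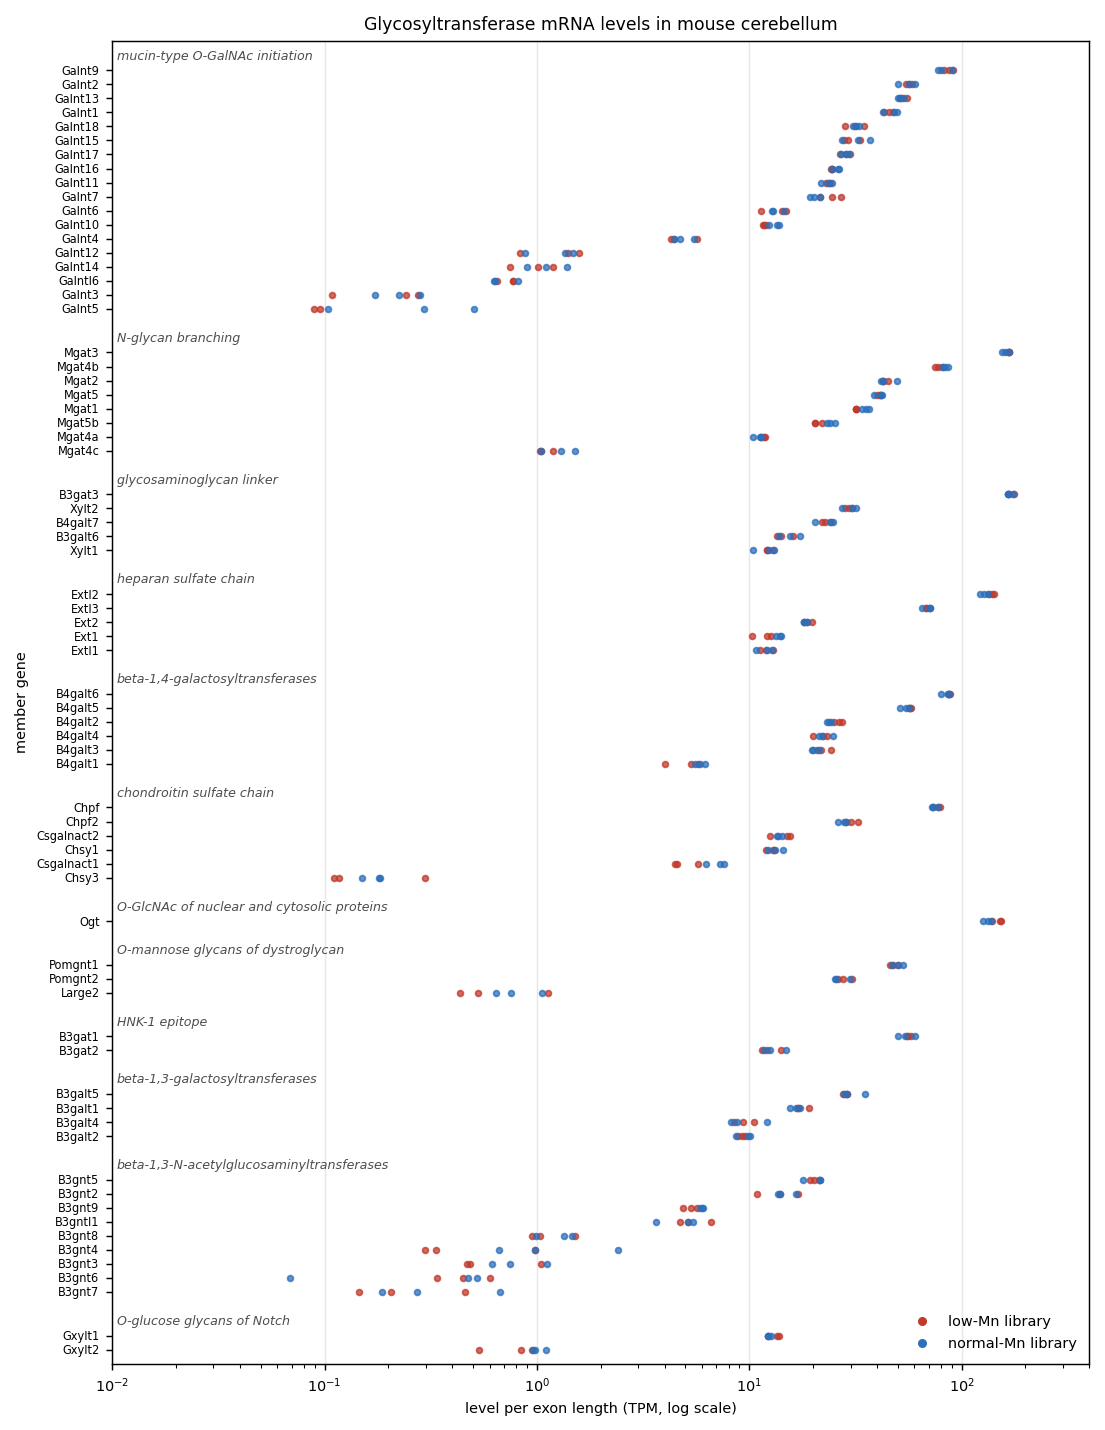
Each point is 1 library of 69 of the 70 members with a count (red, 3 low-Mn, and blue, 3 normal-Mn), the horizontal axis gives the level in TPM on a log scale, members are grouped by role, and libraries at 0 are not drawn. Levels ran from under 1 TPM to 169 TPM for B3gat3, and the libraries of most members lay close together.

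In most roles a few genes carried most of the signal. B3gat3 made up 67.9% of the summed TPM of the linker enzymes, with Xylt2 and Xylt1, which start the linker on serine, at 29.7 and 12.2 TPM. In heparan sulfate chain formation Extl2 made up 54.2% and Extl3, which adds the first GlcNAc of the chain, followed at 69.0 TPM. The polymerase pair Ext1 and Ext2 stood lower, at 12.7 and 18.6 TPM. In chondroitin sulfate chain formation the polymerizing factor Chpf made up 54.8%, at 75.6 TPM. Csgalnact2 and Csgalnact1, both of which start that chain, had 14.1 and 5.99 TPM, and the polymerase Chsy1 had 12.97 TPM. Of the N-glycan branching enzymes, Mgat3 made up 41.1%, and Mgat4b, which adds a branch to complex N-glycans, had 80.8 TPM. Mgat1, which adds the GlcNAc that every complex N-glycan needs, had 33.6 TPM.

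The remaining families differed in how evenly their mRNA was spread. The Galnt family was spread over many genes, with Galnt9 at 84.9 TPM making up 19.5% and Galnt2, Galnt13 and Galnt1 at 56.0, 52.5 and 46.0 TPM. B4galt6 and B4galt5, both known to make lactosylceramide, led the β1,4-galactosyltransferases at 85.9 and 55.6 TPM, whereas B4galt1 had 5.44 TPM. B3gat1, which makes the glucuronic acid of the HNK-1 epitope, made up 81.3% of its pair at 55.6 TPM. Among the enzymes of O-mannose glycans, Pomgnt1, which extends O-mannose with GlcNAc, had 49.0 TPM. B3galt5 (45.0% of the β1,3-galactosyltransferases), B3gnt5 (41.4% of the β1,3-GlcNAc-transferases) and Gxylt1 (93.5% of the Notch xylosyltransferase pair) led their groups.

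Neighbours in the order of levels were mostly not apart. For the 70 members with a count in any library, 61 of the 69 neighbouring pairs overlapped in their range over the 6 libraries and 8 did not. Mgat3 and Ogt, Extl2 and B4galt6, and Chpf and Extl3 were among the pairs that did not overlap. With coding length in place of exon length the order was similar (Spearman's rho 0.924 over the 70 members, which share the same counts and libraries). Mgat3, at 165 TPM, then stood first and Galnt13 passed Galnt9, so those orders depend on the length used.

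The lowest members were left out of the main test. Galntl5, Mgat4d and Mgat4e had no count in any library. B3gnt4, B3gnt6, B3gnt7, Chsy3, Galnt3 and Galnt5 had mean counts of 7.67, 5.0, 7.17, 6.5, 5.17 and 4.5 and did not pass the filter on low counts. In the fit without that filter the smallest unadjusted p of these 6 was that of Galnt5, at 0.0400 (adjusted p = 0.481 in edgeR), on counts of 2, 0 and 2 in the low-Mn and 8, 3 and 12 in the normal-Mn libraries. In all, 12 of the 73 members share at least 10% of their sequence or exons with another gene, so that their counts could hold reads of the other gene. Those with a same-strand overlap include Galnt2 (Gm20388), B3gnt2 (Gm28048) and B4galt2 (Ccdc24), and those opposite another gene include Chpf2 (Smarcd3).

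The diet comparison asked whether low dietary Mn moved the mRNA of these enzymes. No member passed an adjusted p of 0.05 in either direction in edgeR's quasi-likelihood test with Benjamini-Hochberg adjustment over all 16123 genes, in which 96 genes (0.595%) passed, 0.416% as higher and 0.18% as lower on the low-Mn diet. DESeq2 and limma-voom, which called 1.22% and 0.391% of the genes they adjusted, also called no member, although DESeq2 gave no adjusted p for 20 of its 70 members, Csgalnact1 among them. At an unadjusted p under 0.05, 9 of the 64 tested members (14.1%) were counted, against 12.1% of all genes tested. DESeq2 counted 6 of 70 and limma-voom 8 of 64 at that level. The 12.1% is that of edgeR, and the share over all genes was not taken for DESeq2 or limma-voom. Of the 64, 3 had higher and 6 had lower levels on the low-Mn diet at that level in edgeR, against 6.54% and 5.58% of all genes. The share of the 9 together lay near the background. By direction, the share was below that of all genes for higher and above it for lower levels, which was not tested. In bulk tissue, fewer cells of a type and less RNA per cell cannot be told apart.

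Directions and sizes were spread around zero. Of the tested members, 27 had a positive and 37 a negative log2 fold change of low-Mn over normal-Mn. Their median was −0.02 and their range −0.53 to 0.24, against a median of −0.0025 over all genes tested. The 3 low-Mn libraries did not overlap the 3 normal-Mn libraries in 16 of the 64 members (25%), compared with 17.1% of all genes tested, 8.79% higher and 8.32% lower. Levels were higher on the low-Mn diet in 7 of the 16 (Ogt, Galnt7, Extl2, Chpf2, B4galt2, B4galt5 and Mgat4a). They were lower in 9 (Csgalnact1, Ext1, Mgat5b, Mgat1, Mgat4b, Galnt10, Galnt16, Gxylt2 and B3gnt9). A design of 3 against 3 cannot reach an exact two-sided permutation p below 0.1 for a single gene.

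The intervals give how large a difference these libraries leave room for. The 95% interval of the fold change, taken gene by gene and not adjusted for the number of genes, lay within 1.2-fold in both directions for 36 of the 64 members and within 1.5-fold for 52. Over all genes tested, 72.9% had an interval within 1.5-fold. Mgat3, the most precisely measured member, had a log2 fold change of 0.04 with an interval of −0.05 to 0.12. B4galt6 had 0.02 (−0.07 to 0.11), and Extl3 had −0.02 (−0.12 to 0.07). Of the 12 members whose interval passed 1.5-fold, 10 had a mean count under 100, and the other two were Csgalnact1 and B4galt1. The median standard error was 0.289 for the 11 members under 100 counts, 0.0989 for the 17 from 100 to 500 and 0.0585 for the 36 at 500 or more.

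**Figure D2:**
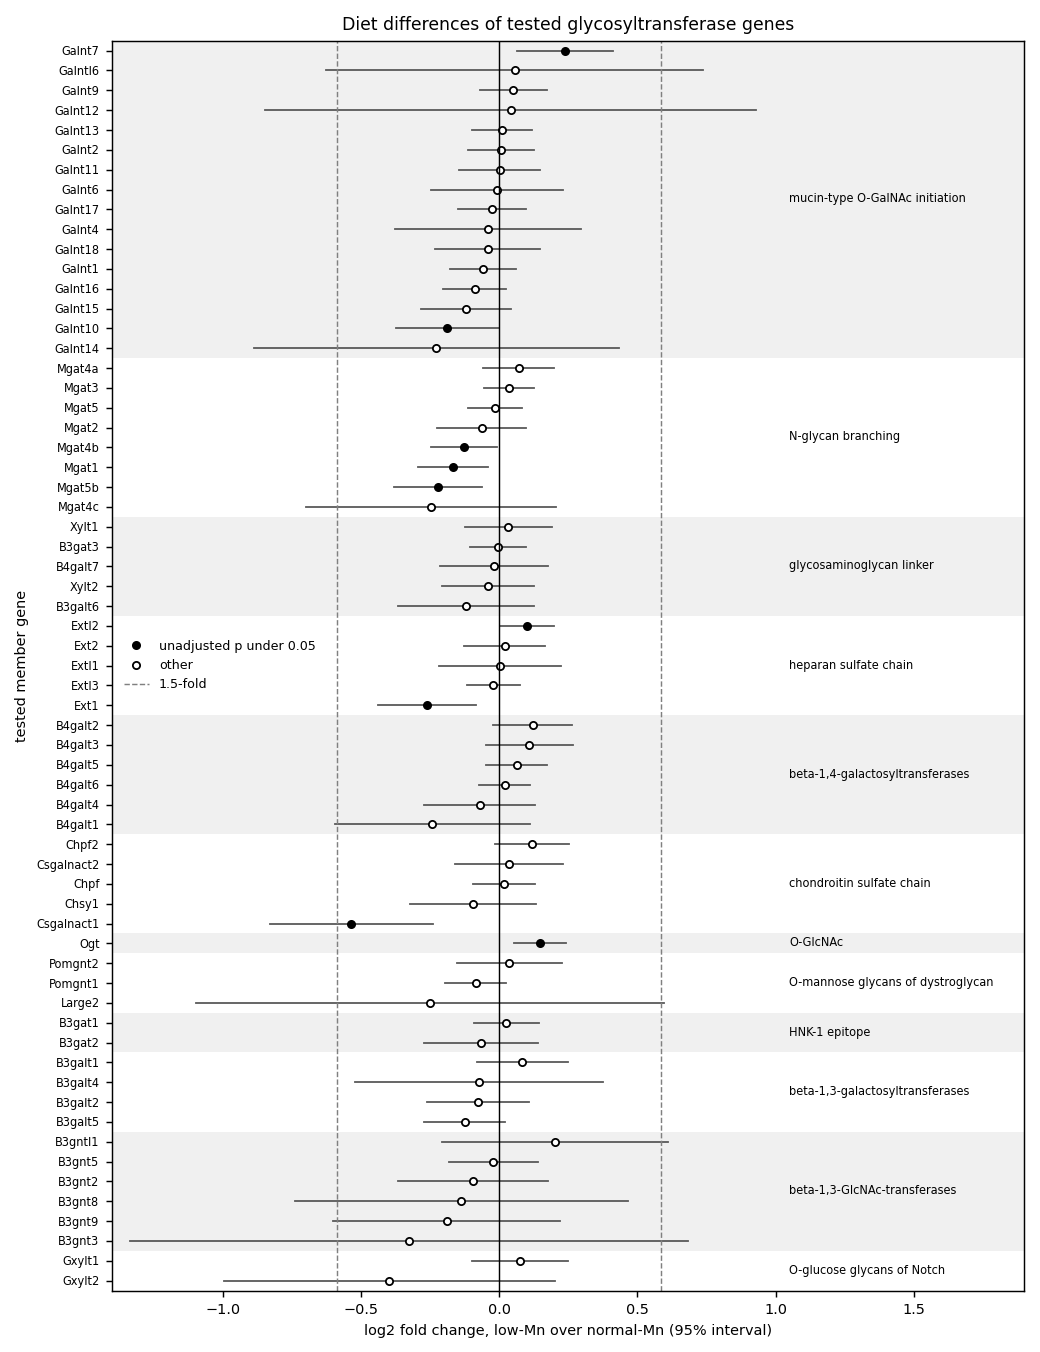
Each point is the log2 fold change of low-Mn over normal-Mn for 63 of the 64 tested members with its 95% interval, grouped by role, with filled points for the 9 at an unadjusted p under 0.05 and dashed lines at 1.5-fold in both directions. Csgalnact1 lay farthest from 0 at −0.53, and 51 of the 63 intervals drawn lay between the dashed lines.

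Among the chondroitin sulfate enzymes, Csgalnact1 (ENSMUSG00000036356.15, chr8:68356781-68735146) had the smallest p-value and the largest fold change of any tested member. Its levels were 6.63, 6.73 and 8.45 CPM in the low-Mn libraries and 10.7, 9.85 and 11.1 CPM in the normal-Mn libraries. All 3 low-Mn libraries lay below all 3 normal-Mn libraries, with means of 7.27 ± 1.02 and 10.5 ± 0.637 CPM (SD, n = 3 each). The fold change was 0.690 (95% interval 0.562 to 0.847), or −0.53 on the log2 scale (SE 0.142), with an adjusted p of 0.0969 in edgeR's quasi-likelihood test. DESeq2 gave it an unadjusted p of 0.00322 and no adjusted p. Over the other alternatives its adjusted p ran from 0.0218 to 0.297, and it passed the threshold in the fit without a filter on low counts alone, which called 1.57% of all genes. Csgalnact2, which starts the same chain, had a log2 fold change of 0.04 (−0.16 to 0.23), and Chsy1 had −0.10 (−0.32 to 0.13). Chpf2, a partner in chain polymerization, had 46.3, 52.4 and 49.2 CPM on the low-Mn diet and 44.9, 45.3 and 46.0 CPM on the normal diet (log2 fold change 0.12, adjusted p = 0.471 in edgeR), and its log2 fold change was 0.07 without low-Mn replicate 2. Over the 5 tested members of this group the median log2 fold change was 0.02.

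Ogt (ENSMUSG00000034160.13, chrX:101640060-101684351) was the most abundant member by counts and came second by p-value. Its levels were 359, 353 and 327 CPM in the low-Mn libraries and 308, 311 and 319 CPM in the normal-Mn libraries. The low-Mn libraries lay above the others without overlap, but low-Mn replicate 3 came close to normal-Mn replicate 3. Means were 346 ± 17.0 and 313 ± 5.88 CPM (SD, n = 3 each), a fold change of 1.11 (1.04 to 1.18) with an adjusted p of 0.160 in edgeR and 0.0553 in DESeq2. The counterpart that removes O-GlcNAc, Mgea5, had 155 ± 9.24 CPM on the low-Mn and 167 ± 3.89 CPM on the normal-Mn diet, a log2 fold change of −0.10 (adjusted p = 0.421 in edgeR).

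Of the heparan sulfate enzymes, Ext1 (chr15:53064038-53346159) and Extl2 had unadjusted p-values under 0.05, on opposite sides of 0. Ext1 had 28.4, 24.1 and 29.6 CPM in the low-Mn libraries and 32.3, 35.1 and 31.1 CPM in the normal-Mn libraries. Its low-Mn libraries were all below the normal-Mn libraries, with a log2 fold change of −0.26 (SE 0.0849, adjusted p = 0.190 in edgeR). Ext2, its partner in the polymerase, had a log2 fold change of 0.02 (−0.13 to 0.17). Extl2 had 142, 139 and 135 CPM on the low-Mn diet and 132, 129 and 126 CPM on the normal diet, again without overlap (log2 fold change 0.10, adjusted p = 0.395 in edgeR). The linker enzymes had no member at an unadjusted p under 0.05. The most abundant of them, B3gat3, had 124, 132 and 126 CPM against 129, 132 and 123 CPM, a log2 fold change of −0.01 (−0.11 to 0.10).

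The N-glycan branching enzymes held 3 of the 6 members with lower levels at an unadjusted p under 0.05, and the median of their 8 tested members was −0.09. These 3 were 37.5% of the 8, against 5.58% of all genes tested, and whether the group differs from all genes was not tested. The summed TPM of the group overlapped between diets, at 394 to 396 in the low-Mn and 388 to 417 in the normal-Mn libraries. Mgat5b (chr11:116918863-116986948), a brain enzyme that branches O-mannose as well as N-glycans, had 27.3, 27.2 and 29.5 CPM in the low-Mn and 30.7, 33.8 and 33.5 CPM in the normal-Mn libraries (log2 fold change −0.22, adjusted p = 0.220 in edgeR). Mgat1 (chr11:49244191-49263030) had 43.8, 43.4 and 43.8 CPM against 47.9, 49.3 and 50.02 CPM (log2 fold change −0.17, adjusted p = 0.255 in edgeR). Both were lower in every low-Mn library than in every normal-Mn library, and the low-Mn values of Mgat1 spanned less than 1 CPM. Mgat4b had 63.9, 60.7 and 59.3 CPM against 67.0, 69.6 and 64.3 CPM, a log2 fold change of −0.13 (adjusted p = 0.373 in edgeR). The low-Mn replicate 1 of Mgat4b came within 1 CPM of normal-Mn replicate 3. The 2 most abundant members after Mgat4b, Mgat2 and Mgat5, and Mgat3 itself, overlapped between diets.

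Among the 16 tested Galnt members, 7 had positive and 9 negative log2 fold changes, with a median of −0.02. Galnt7 (chr8:57523828-57653032), which extends sites that already carry N-acetylgalactosamine, had 41.1, 37.2 and 32.9 CPM in the low-Mn and 29.1, 32.8 and 32.6 CPM in the normal-Mn libraries. Its groups met almost without a gap, at low-Mn replicate 3 and normal-Mn replicate 2, and its log2 fold change was 0.24 (SE 0.0832, adjusted p = 0.233 in edgeR), or 0.15 without low-Mn replicate 1. Galnt10 had 20.2, 20.8 and 20.4 CPM against 23.6, 24.9 and 21.4 CPM (log2 fold change −0.19, adjusted p = 0.404 in edgeR). The most abundant members of the family, Galnt9, Galnt2 and Galnt13, overlapped between diets.

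The β1,4-galactosyltransferases, the family with the aspartate-valine-aspartate run shown above, had no tested member at an unadjusted p under 0.05. Positive log2 fold changes were found in 4 of the 6 and the median was 0.04. The summed TPM of the 6 was 219.33 to 220.23 in the low-Mn and 203.25 to 218.53 in the normal-Mn libraries. These ranges lay narrowly apart, which among the roles was otherwise seen for Ogt alone and was not tested. B4galt2, which galactosylates N-glycans in brain, had 39.9, 38.5 and 36.6 CPM in the low-Mn and 34.2, 36.2 and 35.3 CPM in the normal-Mn libraries, without overlap (log2 fold change 0.12, adjusted p = 0.489 in edgeR). B4galt7, which adds the first galactose of the linker, had a log2 fold change of −0.02 (−0.21 to 0.18). Of the other groups, none had a member at an unadjusted p under 0.05. B3galt5, the closest of them, had 51.8, 50.6 and 49.4 CPM against 50.7, 53.2 and 61.9 CPM, which overlap, with a log2 fold change of −0.13 (adjusted p = 0.491 in edgeR) that became −0.04 without normal-Mn replicate 3. Pomgnt1 had a log2 fold change of −0.08 (−0.20 to 0.03), and B3gat1 had 0.03 (−0.09 to 0.14).

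**Figure D3:**
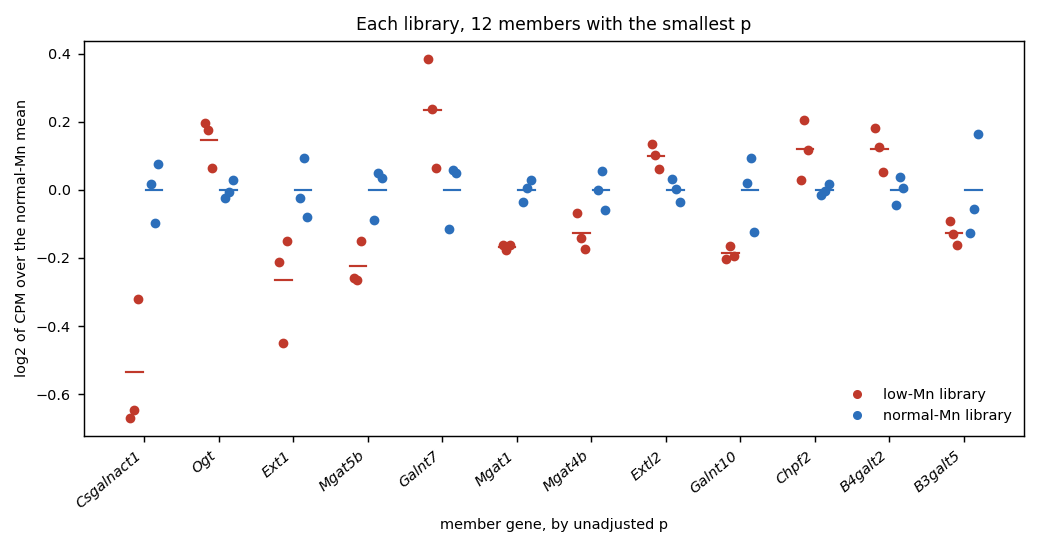
Each point is 1 library of the 12 members with the smallest p-values, the vertical axis gives log2 of CPM over the mean of the normal-Mn libraries, short lines are the diet means of 3 libraries each, and genes run from the smallest p at the left. The diets do not overlap for any gene shown except B3galt5, and no adjusted p was below 0.0969.

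Genes that work with these enzymes gave the same kind of result, with no gene of any of the lists below past the threshold. In 52 tested glycosyltransferases of other families 3 (5.77%) had an unadjusted p under 0.05, against 12.1% of all genes, and the median log2 fold change was −0.02. The smallest p in that list was that of St8sia3, a sialyltransferase of glycolipids and proteins. It had 74.2 ± 1.70 CPM on the low-Mn and 68.0 ± 2.60 CPM on the normal-Mn diet (log2 fold change 0.13, adjusted p = 0.349 in edgeR). In 36 tested genes of nucleotide sugar synthesis and transport there were 2 (5.56%), with a median of −0.02. Slc35a1, the CMP-sialic acid transporter, had 12.6 ± 1.22 and 15.3 ± 0.789 CPM (log2 fold change −0.28, adjusted p = 0.305 in edgeR).

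Enzymes that edit glycosaminoglycans and the proteins that carry the glycans were counted in the same way, and whether any list differs from all genes was not tested. Of 31 tested sulfation and editing genes 6 (19.4%) were counted, 2 higher and 4 lower, with a median of −0.03. Chst12, a chondroitin 4-O-sulfotransferase, had 12.3 ± 1.19 CPM on the low-Mn and 16.1 ± 1.86 CPM on the normal-Mn diet (log2 fold change −0.39, adjusted p = 0.155 in edgeR). Of 26 acceptor proteins 5 (19.2%) were counted, all lower, with a median of −0.04, while the diets did not overlap in 3 (11.5%), against 17.1% of all genes. Bgn, a small proteoglycan of connective tissue, had 14.1, 11.4 and 15.9 CPM against 18.5, 20.8 and 17.6 CPM (log2 fold change −0.46, adjusted p = 0.0875 in edgeR), and in the fit without a filter on low counts its adjusted p was 0.00487. A list named for Mn supply to the Golgi held metal transporters and was not limited to proteins of the Golgi. Its values therefore do not describe Golgi supply alone. Of its 7 tested genes, 1 (14.3%) was counted and the median was 0.03. That gene was Slc11a2, a divalent metal importer, with 46.3 ± 0.912 and 41.0 ± 2.98 CPM (log2 fold change 0.17, adjusted p = 0.290 in edgeR). The Golgi Mn pump Atp2c1 had a log2 fold change of −0.02 (adjusted p = 0.888 in edgeR) and Tmem165, a Golgi Mn transporter, had −0.06 (adjusted p = 0.862 in edgeR).

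**Figure D4:**
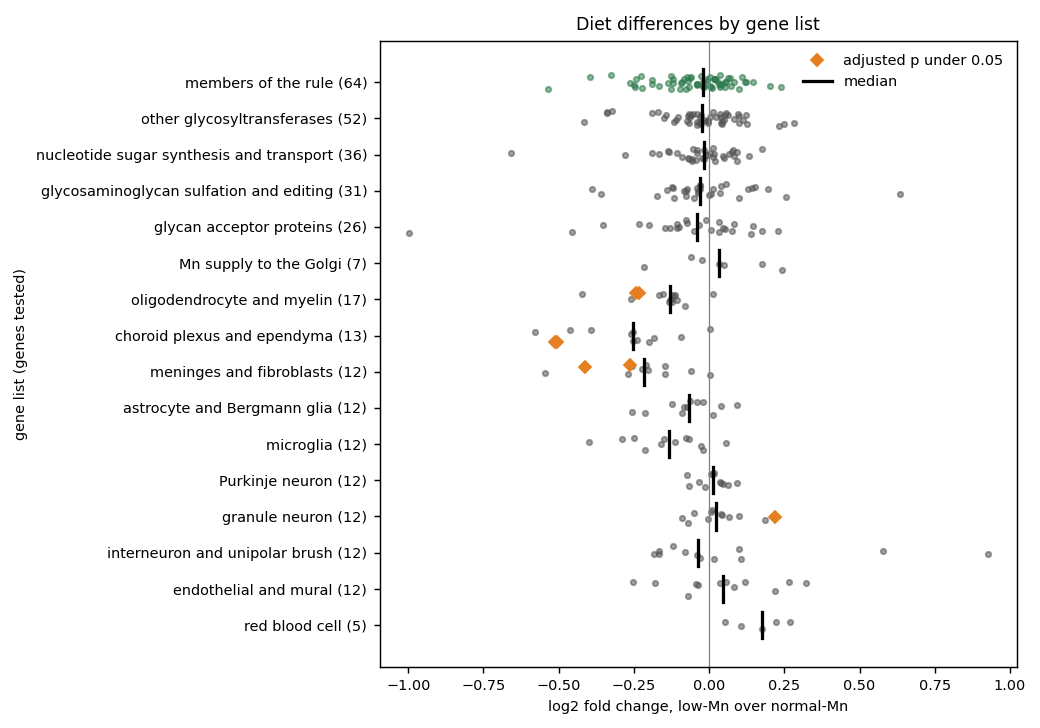
Each point is the log2 fold change of low-Mn over normal-Mn for 1 tested gene, 1 row per list with its number of genes, the black line is the list median and orange diamonds are genes at an adjusted p under 0.05. The members have a median of −0.02 and no diamond, whereas the oligodendrocyte, choroid plexus and meninges lists have medians of −0.13, −0.25 and −0.22 and 2 diamonds each, all negative. Lists can share genes: Dcn is in both the acceptor and the meninges lists, and Ugt8a in both the other glycosyltransferase and the oligodendrocyte lists.

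Summed marker levels of some cell types stood lower on the low-Mn diet. Summed levels of 17 oligodendrocyte and myelin markers were 7302 to 7597 CPM in the low-Mn and 7799 to 8648 CPM in the normal-Mn libraries. Those of 13 choroid plexus and ependymal markers were 2286 to 2819 and 2626 to 3188 CPM, which overlap between diets. Those of 12 meningeal and fibroblast markers were 426 to 487 and 508 to 582 CPM. In each of these 3 lists 2 genes passed the threshold, all lower, among them Gjc3 in the first, Kl and Sostdc1 in the second, and Fn1 and Igf2 in the third. At an unadjusted p under 0.05 stood 13 of the 17, 8 of the 13 and 6 of the 12, all lower, against 5.58% of all genes tested. For genes called as lower, the share over all genes tested was 0.18%. Microglial markers summed to 172 to 182 and 192 to 199 CPM. Those of astrocytes and Bergmann glia summed to 5763 to 5981 and 5998 to 6215 CPM. Neither list had a gene called, and in each 3 of 12 genes were lower at an unadjusted p under 0.05. Of the neuronal lists, granule neuron markers had 1 gene called, Kcnd2, which was higher, and Purkinje neuron and interneuron markers had none. Endothelial and red blood cell markers had none. At an unadjusted p under 0.05, interneuron markers had 2 higher and 2 lower, and granule neuron markers had 2 higher. Endothelial markers had 2 higher and 1 lower at that level, and Purkinje neuron and red blood cell markers had 0. The sums of the neuronal, endothelial and red blood cell lists overlapped between diets. No marker of any list was at 0 in all libraries, and the part of these cell types in the values of Csgalnact1, Ext1, Mgat5b, Mgat1 and Bgn was not tested.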

How the data were processed

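Per the labels and the methods of the study, poly(A) libraries were aligned with STAR to mm10 and quantified with RSEM. The methods name the library kit without calling it directional. The authors deposited expected counts per gene, of which 7.12 to 7.74% were not whole per library. These were rounded to whole numbers. The sources used here do not say whether counting used the strand. Spike-in entries (92, at 0 counts) were left out. GENCODE M21 gave symbols, lengths and coding sequences. Genes were filtered with filterByExpr (minimum count 10, minimum total 15), scaled by TMM and tested with edgeR 4.0.16 in R 4.3.3, with all 6 libraries, no covariate and a Benjamini-Hochberg threshold of 0.05. DESeq2 1.42.0, limma-voom (limma 3.58.1), other scalings, filters, unrounded counts, a replicate block, a gene length and GC trend and leaving out each library were alternatives. TPM values were computed from the exon union. The replicate numbers are shared by both diets, but deviations of same-numbered libraries correlated at 0.03, −0.02 and 0.04, so the numbers were not taken to pair mice. Members are given in full for the 12 smallest p-values and the most abundant gene of each role, and other genes for the smallest p of their list. Further genes were named beside them, some after their values were seen. Gene families and lists were chosen with earlier results of these data known. Some genes are not reported here.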

Additional observations from a re-analysis of the deposited data

How the results depend on the processing

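No alternative called a member as higher, and the fit with no filter on low counts called 1 as lower, Csgalnact1 (log2 fold change −0.54, adjusted p = 0.0218 in edgeR). Bgn was also called there, at −0.46. The number of all genes called, 96, became 63 with limma-voom, 157 after trends with GC content and gene length were taken out, 218 with those trends and the replicate block together, and 424 with no filter. It ran from 37 to 93 when a library was left out, 47 when low-Mn replicate 1 was dropped, 37 for low-Mn replicate 2 and 45 for normal-Mn replicate 2. The replicate block alone called 128 genes and 0 members, with 8 members at an unadjusted p under 0.05. The share of all genes at that level was not taken for that fit. B3gat3 turned from −0.01 to 0.015 in both fits without those trends. Leaving out a library moved several genes with values near 0 across it, B3gat3 over −0.033 to 0.016, B3gnt5 over −0.074 to 0.013, Chpf over −0.019 to 0.046, B3gat1 over −0.0045 to 0.080, Chsy1 over −0.16 to 0.0015, Csgalnact2 over −0.026 to 0.12, Ext2 over −0.017 to 0.072, B4galt7 over −0.068 to 0.019 and Tmem165 over −0.13 to 0.046. The median of members ran from −0.03 to −0.01. Members with no overlap between diets numbered 16, 18 with either other scaling and 18 to 23 without a library. With a library left out fewer libraries have to lie apart, so such a count can only stay or rise. The share over all genes was not taken for these settings. The median member level was 23.9 TPM by coding length against 22.3 TPM. The causes were not tested. Depth limits the members under 100 counts.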
